A study of Mus musculus with 18 samples.

Results

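Ribosomes are assembled from ribosomal RNA and proteins, and their making starts in the nucleolus, where RNA polymerase I copies the ribosomal DNA repeats into a long precursor. The precursor is then cut, trimmed and chemically modified by small nucleolar ribonucleoproteins and many processing factors. Blood stem cells are known for low protein synthesis, and the rate of ribosome making follows growth and cell division in many cell types. The genes described here are Rn45s, the row of the precursor, and 9 messenger RNAs of its synthesis and handling. They were taken by their symbols from the deposited count table. They are 10 of the 24421 genes in it. Polr1a and Polr1b encode the catalytic subunits of RNA polymerase I, Ubtf encodes a factor that holds ribosomal DNA open, and Rrn3 encodes the factor that brings the polymerase to its promoter. Ncl and Npm1 encode the abundant nucleolar proteins nucleolin and nucleophosmin. Fbl, Nop56 and Nop58 encode the methyltransferase fibrillarin and the scaffold proteins of the box C/D particles, which methylate ribosomal RNA.

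RNA was sequenced from hematopoietic stem cells (HSCs) of the bone marrow of Hoxb5-tri-mCherry mice on a C57BL/6J background, in which mCherry is made where Hoxb5 is expressed. Young mice were 2 to 3 months and aged mice 23 to 25 months old, and all carried the reporter. At each age the Hoxb5-positive cells were sorted as LT-HSCs (long-term), the Hoxb5-negative cells as ST-HSCs (short-term), and the HSC gate as a whole, which holds both, as bulk-HSCs. Each of the 6 groups had 3 libraries. The labels do not say whether libraries came from separate mice or from pools, so the p-values measure the spread between these libraries, which may be technical. The library numbers in the labels run through all young libraries before the aged ones, so that an order of preparation, if the numbers follow one, and age cannot be told apart. Within each age LT-HSCs and ST-HSCs alternate and bulk-HSCs come last. Such an order and the difference of bulk-HSCs from the other fractions cannot be told apart either.

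The libraries held from 16495048 to 22973844 counts. Levels are given as CPM, counts scaled to a common library size with TMM factors. At least 1 count was found for 11548 to 13876 genes in young libraries and for 13526 to 14133 in aged ones. This number of detected genes ran with age. In fits with it as a covariate, its part and that of age cannot be fully told apart. The summed level of 13 HSC marker genes lay between 4230 and 5211 CPM in young and between 4328 and 5171 CPM in aged libraries. The summed marker levels of other cell types ran, in young and then aged libraries, from 149 to 268 and 230 to 315 CPM for neutrophils and monocytes, from 0 to 43.4 and 5.27 to 56.4 for macrophages, from 0 to 23.8 and 6.68 to 50.1 for erythroid cells and from 75.0 to 169 and 113 to 191 for platelets. They ran from 10.6 to 29.2 and 12.9 to 26.1 CPM for B cells, from 0.227 to 26.2 and 23.4 to 138 for T and NK cells, from 18.4 to 39.9 and 15.8 to 43.9 for endothelial and stromal cells, and from 119 to 349 and 72.2 to 160 for multipotent progenitors. The T cell genes Cd3e, Cd3g and Cd8a and the B cell genes Ms4a1, Pax5 and Ebf1 had 0 counts in all 18 libraries. Other genes of these lists were found. Cd79b of the B cell list had 10.6 to 29.2 CPM, and of the T and NK markers Cd4 reached 8.78 and Nkg7 19.3 CPM. Klrb1c was the most abundant of the T and NK markers, with 0.227 to 136 CPM. Of the neutrophil and monocyte markers, Prtn3 had 41.1 to 182 and Lyz2 86.3 to 149 CPM, while Mpo had 0 counts in all 18 libraries. Hoxb5 itself had 8.20 to 40.3 CPM in young and 18.4 to 26.0 CPM in aged LT-HSCs, and at most 4.56 CPM in ST-HSCs. In such bulk samples, fewer cells of a type and less RNA per cell cannot be told apart.

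The promoters of 7 of the 10 genes were listed in RefSeq's table for GRCm38.p6, the build that mm10 also represents. Rn45s, Npm1 and Fbl had no entry. The upstream 250 bases of Nop56 are shown because Nop56 was the messenger RNA that differed with age, and those of Rrn3 because it was the member whose promoter held the E-box CACGTG. The sequences lie on the plus strand at chr2:130274162-130274411 for Nop56 and at chr16:13780449-13780698 for Rrn3, and capitals mark CACGTG, or CCAAT read on either strand.
Nop56: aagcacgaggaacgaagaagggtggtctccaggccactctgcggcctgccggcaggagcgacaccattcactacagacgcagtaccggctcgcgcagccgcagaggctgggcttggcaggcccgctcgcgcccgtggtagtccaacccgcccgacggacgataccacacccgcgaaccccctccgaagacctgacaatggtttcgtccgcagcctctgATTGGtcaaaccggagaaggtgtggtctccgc
Rrn3: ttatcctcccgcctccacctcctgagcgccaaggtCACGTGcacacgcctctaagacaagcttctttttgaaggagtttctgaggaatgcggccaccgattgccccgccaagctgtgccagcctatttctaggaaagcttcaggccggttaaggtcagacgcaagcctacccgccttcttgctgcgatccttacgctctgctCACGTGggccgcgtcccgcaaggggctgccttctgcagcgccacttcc
Rrn3 held CACGTG at 2 places, which begin 215 and 48 bases before the start site. No other of the 12 listed promoters of the members held it between 250 bases before and 50 after the start. CACGTG, which reads the same on both strands, was found in 7.15% of all 32851 promoters. It was found in 26.1% of 46 promoters of small subunit processing genes and in 18.5% of 54 of large subunit processing genes. The share was 11.8% of 68 for ribosomal protein genes, 14.3% of 14 for polymerase subunits and 13.6% of 22 for exosome and trimming genes. For nucleolar histone-binding and scaffold proteins it was 14.3% of 7. Initiation and regulation genes had it in 6.25% of 16 and small nucleolar particle proteins in 0 of 12. The promoter of Nop56 had CCAAT on the opposite strand, 32 bases before the start. That motif was searched after the sequences were seen and was present in 37.4% of all promoters and in 3 of the members' 12, those of Nop56, Polr1a and Ubtf. These are matches of letters and say nothing of whether a factor was bound.

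The level per length put the messenger RNAs of the members far apart. Lengths were those of the longest transcript tagged as principal in GENCODE M21. Per kilobase, the group means of Npm1 lay between 334 and 394 CPM and those of Ncl between 103 and 129 CPM. The box C/D genes came next, Nop58 with 69.3 to 90.9, Fbl with 65.7 to 96.8 and Nop56 with 61.2 to 94.4 CPM per kilobase, ranges that overlap. Ubtf had 28.3 to 39.7, Polr1b 21.3 to 27.8, Rrn3 19.5 to 25.02 and Polr1a 11.2 to 16.6 CPM per kilobase. The order and the gaps depend on the transcript lengths taken, which were 8202 bases for Ncl, 1633 for Npm1 and 1713 for Nop58, for example. A shorter transcript of Ncl would bring its level per length nearer to that of Npm1. In mm10 the genes lie at chr6:71909053-71984935 (Polr1a), chr2:129100995-129126594 (Polr1b), chr11:102304560-102319742 (Ubtf), chr16:13780708-13814839 (Rrn3), chr1:86344719-86359400 (Ncl), chr11:33152287-33163206 (Npm1), chr7:28169710-28179269 (Fbl), chr2:130274430-130279313 (Nop56) and chr1:59684971-59719044 (Nop58). No length was taken for Rn45s, so its level is compared only with itself.

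**Figure D1:**
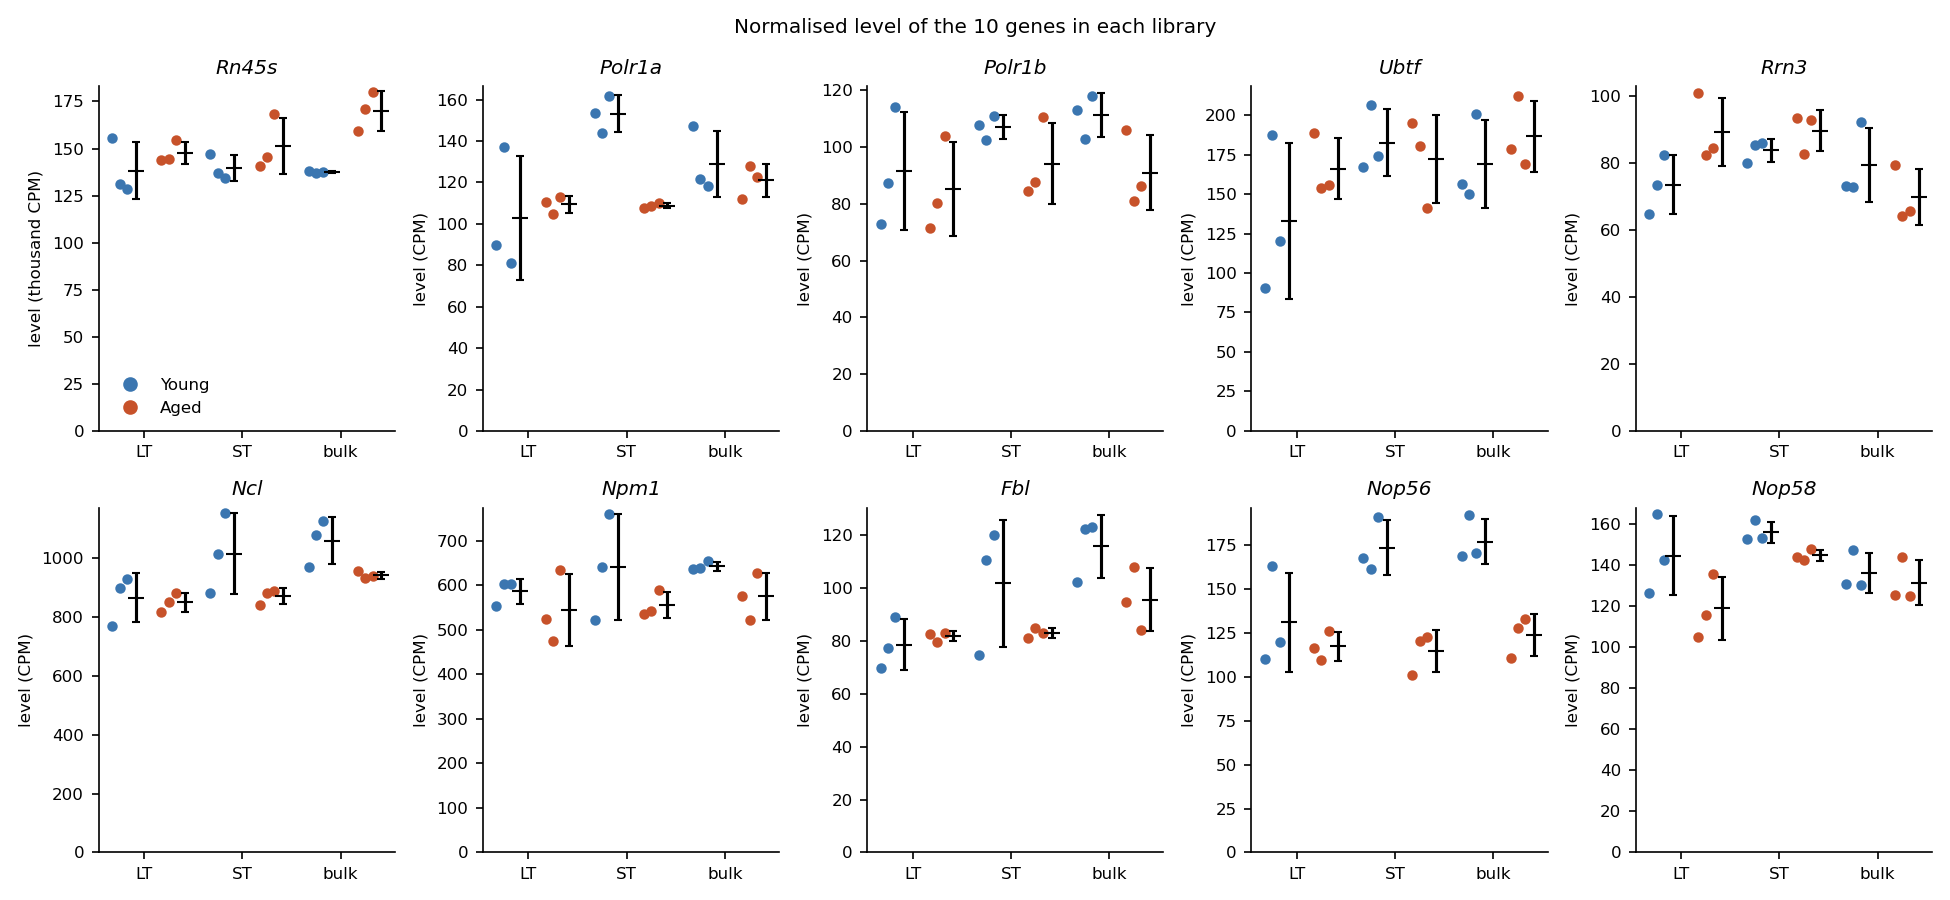
Normalised level of each gene in each library, in CPM on linear axes that start at 0 (kCPM, kilo-CPM, for Rn45s). Points are the 3 libraries of a group, young to the left of aged within LT-HSCs, ST-HSCs and bulk-HSCs, and the black marks give the mean and SD (n = 3). Nop56 in young ST-HSCs and bulk-HSCs sits at 162 to 192 CPM, above all aged libraries.

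The Rn45s row was higher in aged than in young libraries on average over the fractions, by the most in bulk-HSCs. In young bulk-HSCs it had 137991, 137123 and 137527 CPM, and in aged bulk-HSCs 159080, 170777 and 179881 CPM. The ages did not overlap there, and the spread was far smaller among the young libraries. In LT-HSCs the young libraries had 155642, 130886 and 128337 CPM and the aged ones 143847, 144313 and 154523. In ST-HSCs the values were 147341, 137245 and 134517 CPM in young and 140734, 145290 and 168131 in aged libraries. The ages overlapped in both of these fractions, since replicate 1 of young LT-HSCs lay above all 3 aged LT-HSC libraries and replicate 1 of young ST-HSCs above 2 of the aged ones. The mean of aged bulk-HSCs, 169912 CPM, lay above those of aged LT-HSCs (147561 CPM) and aged ST-HSCs (151385 CPM). It thus lay outside the range of the fractions that the bulk gate holds, and the reason was not tested. Aged over young, the log2 fold change was 0.30 in bulk-HSCs (SE 0.068, adjusted p = 0.0252), which is a level 1.24 times as high. It was 0.12 for ST-HSCs (SE 0.068, adjusted p = 0.678), 0.09 for LT-HSCs (SE 0.068, adjusted p = 0.819) and 0.17 averaged over the fractions (SE 0.039, adjusted p = 0.0117).

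These adjusted p-values come from edgeR's quasi-likelihood test over 12808 genes, in a fit of the 6 group means, as do those below unless another tool, a covariate or a left-out library is named. The age effect of Rn45s was smaller in LT-HSCs than in bulk-HSCs by a log2 value of -0.21 (SE 0.096, adjusted p = 0.838), so a difference in its age effect between fractions was not shown. Without replicate 1, 2 or 3 of young bulk-HSCs, or replicate 2 or 3 of aged bulk-HSCs, the call in bulk-HSCs was lost, with adjusted p from 0.0616 to 0.131 and log2 fold changes from 0.26 to 0.31. It was also lost when libraries were scaled by their totals alone (0.24, adjusted p = 0.0503) and with detected genes as a covariate (0.29, adjusted p = 0.199). Without replicate 1 of aged bulk-HSCs the adjusted p was 0.0301. The averaged call held with each of the 18 libraries left out in turn (adjusted p from 0.00121 to 0.0303). With detected genes as a covariate the averaged value was 0.16 and the adjusted p 0.347.

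As a share of all counts of a library, Rn45s took 12.8% to 15.5% in young and 14.3% to 17.4% in aged libraries. For LT-HSCs the mean share was 14.1% ± 1.24 (SD, n = 3) when young and 14.7% ± 0.473 (SD, n = 3) when aged, and 13.9% ± 0.991 and 15.1% ± 1.25 (SD, n = 3 each) in ST-HSCs. In bulk-HSCs it was 14.02% ± 0.0909 in young and 16.6% ± 0.834 (SD, n = 3 each) in aged mice. Within a fraction the two-sided exact permutation test gave p = 0.1 for bulk-HSCs, p = 0.4 for ST-HSCs and p = 0.5 for LT-HSCs, the first being the smallest p that 3 libraries against 3 allow. With ages exchanged within fractions, the mean difference of 1.46 percentage points had p = 0.007 over 8000 arrangements (two-sided exact permutation test). This test and the averaged fit take libraries of different fractions as independent. If fractions shared mice, their p-values may be too small. The libraries were depleted of ribosomal RNA before sequencing. Mature ribosomal RNAs are cut from the precursor, so what depletion left of them may also count as Rn45s. The precursor that cells held and the rest that depletion left cannot be told apart in these counts. Of the other abundant non-coding RNAs, Malat1, Rpph1 (the RNA of ribonuclease P) and Rmrp (that of ribonuclease MRP) were tested, and in the averaged age effect 0 of 3 were called by edgeR, DESeq2 or limma-voom, with 0 at an unadjusted p under 0.05 (19.7% of all genes). Within bulk-HSCs, where Rn45s was called, edgeR called 0, and Rpph1 and Rmrp were 2 with an unadjusted p under 0.05 (13.3% of all genes). Their log2 fold changes there were -0.38 (SE 0.157, adjusted p = 0.278) and -0.43 (SE 0.179, adjusted p = 0.294), of the opposite sign to that of Rn45s. Within ST-HSCs Malat1 had -0.25 (SE 0.106, adjusted p = 0.431). The averaged log2 fold changes of the 3 RNAs were all below 0, with -0.11 for Malat1 (SE 0.061, adjusted p = 0.367) and -0.13 for Rpph1 (SE 0.090, adjusted p = 0.468).

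Nop56, a scaffold protein of the box C/D particle, fell with age. Its 3 libraries had 168, 162 and 191 CPM in young ST-HSCs and 101, 121 and 123 CPM in aged ST-HSCs. In bulk-HSCs they had 169, 192 and 171 CPM in young and 111, 128 and 133 CPM in aged mice. The ages did not overlap in either fraction. In LT-HSCs the young libraries had 110, 163 and 120 CPM and the aged ones 117, 110 and 126 CPM, so that the young values overlapped the aged ones and replicate 2 alone was near the level of the other young fractions. Aged over young, its log2 fold change was -0.52 for bulk-HSCs (SE 0.147, adjusted p = 0.0880), -0.60 for ST-HSCs (SE 0.147, adjusted p = 0.0657) and -0.16 for LT-HSCs (SE 0.147, adjusted p = 0.896). Averaged over the fractions it was -0.42 (SE 0.085, adjusted p = 0.00472), a level 0.745 times that of young cells.

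The averaged Nop56 call held without each of the 18 libraries in turn (adjusted p from 0.00246 to 0.0129), and with detected genes as a covariate the value was -0.52 (adjusted p = 0.0553). DESeq2 called it within bulk-HSCs (adjusted p = 0.0107) and within ST-HSCs (adjusted p = 0.00328). In LT-HSCs the value was 0.01 without replicate 2 of young LT-HSCs, so its direction there rested on that library. The difference between the age effects of LT-HSCs and ST-HSCs was 0.44 (SE 0.208, adjusted p = 0.9999), which did not pass the test. Exons of Nop56 overlap those of Idh3b on the opposite strand, whose averaged log2 fold change was -0.26 (SE 0.106, adjusted p = 0.170). The sources used here do not say whether strand was used in counting, so reads of the overlap may have been given to either gene.

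Fbl and Nop58, the partners of Nop56 in the particle, had averaged log2 fold changes of -0.17 (SE 0.096, adjusted p = 0.361) and -0.15 (SE 0.073, adjusted p = 0.279). The 95% interval ran from -0.37 to 0.03 for Fbl and from -0.30 to 0.01 for Nop58. Fbl had 74.7, 111 and 120 CPM in young ST-HSCs and 81.1, 84.9 and 83.1 CPM in aged ST-HSCs. Its 3 young bulk-HSC libraries had 102, 122 and 123 CPM and the aged ones 94.9, 108 and 84.3. Fbl was spread widely among young and narrowly among aged ST-HSC libraries, and the ages overlapped in every fraction. Nop58 lay at 152, 162 and 153 CPM in young and 144, 142 and 148 CPM in aged ST-HSCs, a small difference without overlap (log2 fold change -0.11, SE 0.127, adjusted p = 0.941). In LT-HSCs Nop58 had 126, 165 and 142 CPM in young and 105, 116 and 136 CPM in aged mice (log2 fold change -0.28, SE 0.127, adjusted p = 0.532).

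Of the polymerase subunits, Polr1a had its highest mean in young ST-HSCs, with 153, 144 and 162 CPM. Aged ST-HSCs had 108, 109 and 110 CPM, with no overlap and little spread. The log2 fold change was -0.49 (SE 0.161, adjusted p = 0.205), which did not pass the test. In LT-HSCs Polr1a had 89.9, 137 and 81.2 CPM in young and 111, 105 and 113 CPM in aged mice, and the direction of its small age effect there changed with the library left out. Polr1b, the other large subunit, ran from 73.0 to 118 CPM in young and from 71.6 to 110 CPM in aged libraries, with an averaged log2 fold change of -0.19 (SE 0.104, adjusted p = 0.334, 95% interval -0.41 to 0.03).

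Ubtf and Rrn3, which act in initiation, were the messenger RNAs with averaged age effects above 0. Ubtf ran from 90.8 to 207 CPM in young and from 141 to 212 CPM in aged libraries (averaged log2 fold change 0.13, SE 0.120, adjusted p = 0.652). With detected genes as a covariate its value was -0.09. Rrn3 ran from 64.7 to 92.2 CPM in young and from 64.2 to 101 CPM in aged libraries (0.06, SE 0.088, adjusted p = 0.791). In aged mice Rrn3 had 101, 82.2 and 84.5 CPM in LT-HSCs and 93.5, 82.7 and 92.7 CPM in ST-HSCs. Both lay above the 79.2, 64.2 and 65.8 CPM of bulk-HSCs, although the bulk gate holds both fractions. Neither difference passed the test (adjusted p = 1 for both). Of all genes, 15.1% had no overlap between aged LT-HSCs and bulk-HSCs, and 14.5% had none between aged ST-HSCs and bulk-HSCs.

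Ncl and Npm1 were slightly lower in aged cells in each fraction, and neither passed the test. Ncl had 970, 1077 and 1126 CPM in young and 954, 931 and 940 CPM in aged bulk-HSCs, without overlap. Its averaged log2 fold change was -0.14 (SE 0.056, adjusted p = 0.159, 95% interval -0.26 to -0.02), and in LT-HSCs its direction depended on the library left out. Npm1 had 636, 639 and 655 CPM in young and 576, 522 and 628 CPM in aged bulk-HSCs, also without overlap. Its averaged log2 fold change was -0.16 (SE 0.072, adjusted p = 0.230, 95% interval -0.31 to -0.01). Npm1 has processed copies elsewhere in the genome, and how the authors' counting treated reads that fit several places is not given in the sources used here.

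**Figure D2:**
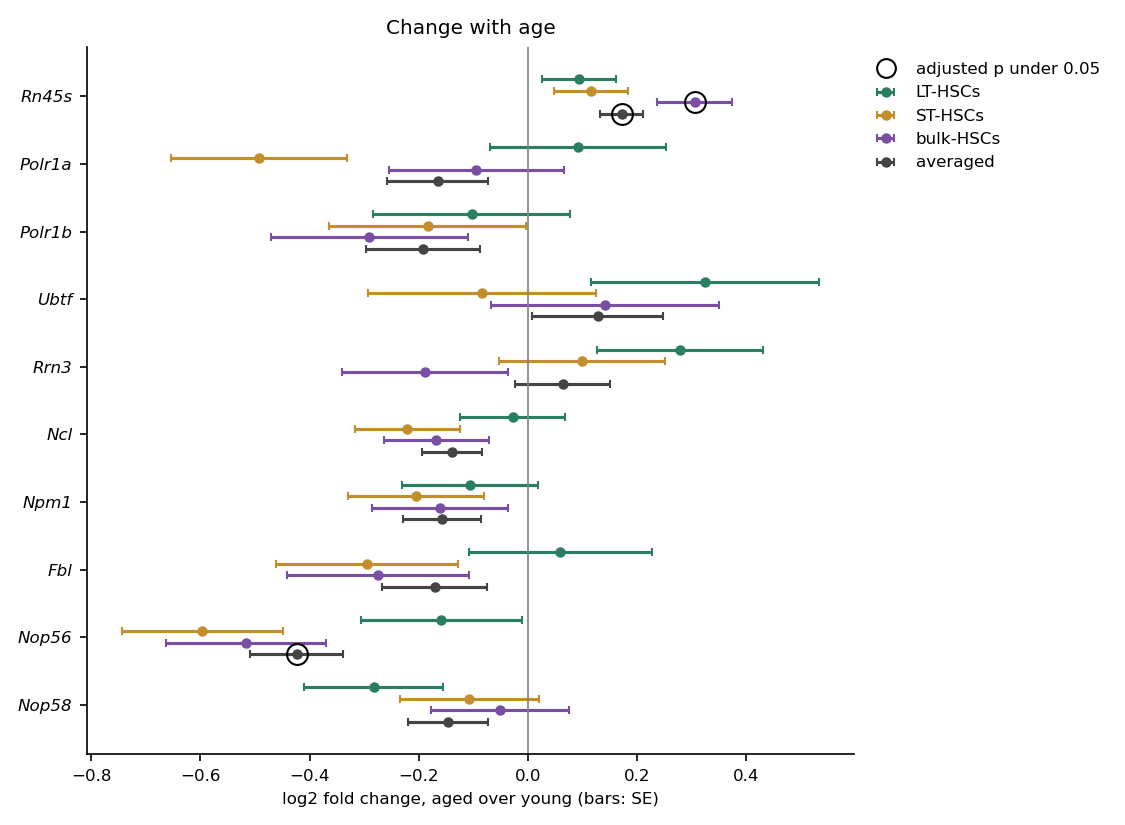
Log2 fold change with age of each gene (horizontal axis, aged over young) in LT-HSCs, ST-HSCs, bulk-HSCs and averaged over them, with bars of 1 SE and a ring where the adjusted p was under 0.05. Rn45s is ringed in bulk-HSCs and on average, and Nop56 on average.

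Over the 10 genes, 2 were called in the averaged age effect, Rn45s higher and Nop56 lower, where 6.75% of all genes tested were called. In bulk-HSCs 1 was called, Rn45s, against 1.98% of all genes. In LT-HSCs edgeR called 0 of 10, against 0.445% of all genes, and DESeq2 called 0. There, 1 gene had an unadjusted p under 0.05, as did 8.81% of all genes. In ST-HSCs edgeR called 0 of 10 (0.851% of all genes), and DESeq2 and limma-voom each called 1, Nop56. At an unadjusted p under 0.05 there were 3 in ST-HSCs, Polr1a, Ncl and Nop56, against 9.67% of all genes. The ages did not overlap for 4 members in bulk-HSCs, 3 of them lower, for 3 in ST-HSCs, all lower, and for 0 in LT-HSCs, against 22.7%, 17.8% and 16.1% of all genes in either direction. The median log2 fold change of the members was -0.16 for bulk-HSCs, -0.19 for ST-HSCs and 0.02 for LT-HSCs, where all genes tested had medians of 0.03, 0.02 and 0.04.

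The second comparison was between fractions of young mice, sorted apart by Hoxb5. All 10 genes had a lower fitted level in young LT-HSCs than in young ST-HSCs, as did 50.4% of all genes. EdgeR called 0 of the 10, where 0.429% of all genes were called. At an unadjusted p under 0.05 there were 5, Polr1a, Ubtf, Ncl, Fbl and Nop56, against 10.4% of all genes, and DESeq2 called 1, Polr1a. The median log2 fold change was -0.23 over the members and 0.00 over all genes. Polr1a was the gene with no overlap, where 12.1% of all genes had none, with 81.2 to 137 CPM in LT-HSCs and 144 to 162 CPM in ST-HSCs (log2 fold change -0.58, SE 0.161, adjusted p = 0.143). Without replicate 2 of young LT-HSCs, the library with 137 CPM, that value was -0.83 and edgeR called it (adjusted p = 0.00715). Nop56 had a log2 fold change of -0.40 (SE 0.147, adjusted p = 0.313), Fbl of -0.37 (SE 0.167, adjusted p = 0.441) and Ncl of -0.23 (SE 0.096, adjusted p = 0.390).

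Against young bulk-HSCs, 8 of the 10 genes had a lower fitted level in young LT-HSCs, as did 49.8% of all genes. EdgeR again called 0 members, against 0.273% of all genes. There were 3 at an unadjusted p under 0.05, Fbl, Ncl and Nop56, against 11.5% of all genes, and DESeq2 called 1, Fbl (adjusted p = 0.0469). Fbl had 69.7, 77.2 and 89.0 CPM in young LT-HSCs, all below the 102 to 123 CPM of young bulk-HSCs (log2 fold change -0.56, SE 0.167, adjusted p = 0.183). Ncl had 770, 897 and 929 CPM against 970 to 1126 CPM (-0.29, SE 0.096, adjusted p = 0.243). Nop56 and Npm1 did not overlap either, so that 4 members had no overlap, against 12.2% of all genes. Between young ST-HSCs and young bulk-HSCs, which share HSCs without Hoxb5, edgeR called 0 of 10 (0.164% of all genes). There, 0 members had an unadjusted p under 0.05 (9.63% of all genes), and DESeq2 called 0.

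The lower values of young LT-HSCs were uneven among its 3 libraries. Replicate 1 had the lowest level of all 18 libraries for Ubtf, Ncl and Fbl, and replicate 3 for Polr1a and Rn45s, while replicate 2 had the highest level of all for Nop58. Replicates 1, 2 and 3 had 12492, 13876 and 11665 detected genes. The part of detection in these differences was not tested beyond the fits with it as a covariate.

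**Figure D3:**
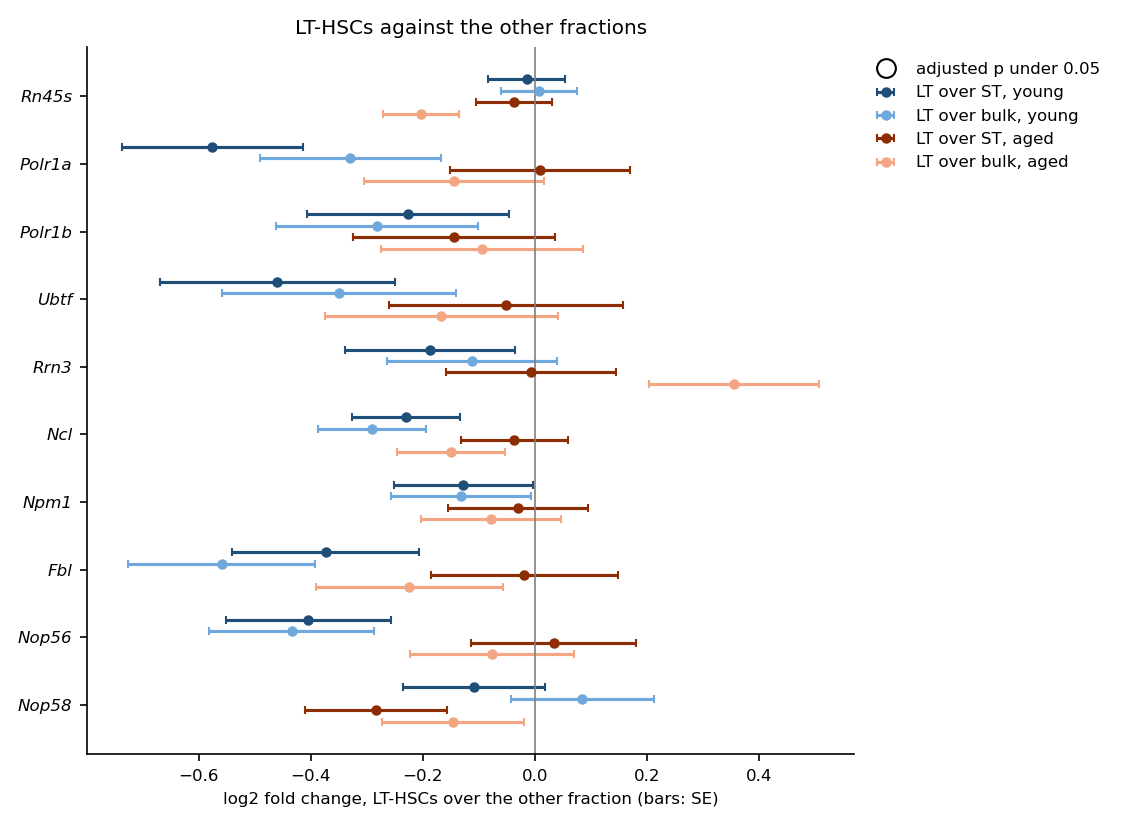
Log2 ratio of the level in LT-HSCs to that in ST-HSCs or bulk-HSCs for each gene in young and in aged mice, with bars of 1 SE. The young values lie below 0 for all 10 genes against ST-HSCs (50.4% of all genes), and no value has a ring, the mark of an adjusted p under 0.05.

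The third comparison was between fractions of aged mice. EdgeR called 0 of 10 members for LT-HSCs against ST-HSCs (0.00781% of all genes), 0 for LT-HSCs against bulk-HSCs (0.00%) and 0 for ST-HSCs against bulk-HSCs (0.00%), and DESeq2 called 0 in each. Members with an unadjusted p under 0.05 numbered 1, 2 and 2, against 3.41%, 3.29% and 2.70% of all genes. They were Nop58 in the first, lower in LT-HSCs (log2 fold change -0.28, SE 0.127, adjusted p = 1), and Rn45s and Rrn3 in both of the others. Polr1a in LT-HSCs, relative to ST-HSCs, stood at a log2 fold change of -0.58 in young and 0.01 in aged mice, and Fbl at -0.37 and -0.02. For ST-HSCs relative to bulk-HSCs, Rn45s stood at 0.02 in young and -0.17 in aged mice, and Rrn3 at 0.08 and 0.36. Whether the age effect differed between fractions was tested directly for LT-HSCs against each of the others. It was not tested between ST-HSCs and bulk-HSCs. Between LT-HSCs and ST-HSCs edgeR called 0 of 10 (0.00% of all genes), and between LT-HSCs and bulk-HSCs 0 of 10 (0.00781%), and DESeq2 called 0 in both. There were 2 members with an unadjusted p under 0.05 in each, Polr1a and Nop56 in the first and Rn45s and Rrn3 in the other, against 3.92% and 5.82% of all genes.

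The wider machinery of ribosome making was compared in the averaged age effect, in which 6.75% of all genes were called and 19.7% had an unadjusted p under 0.05. Genes named below as called by DESeq2 or limma-voom but not by edgeR were chosen after their values were seen. Of 13 RNA polymerase I subunits, Polr1a and Polr1b among them, edgeR and limma-voom called 0 and DESeq2 called 1, Polr2k. An unadjusted p under 0.05 was reached by 2, Polr2k (adjusted p = 0.0661) and Twistnb (adjusted p = 0.101). Polr2k had 0 to 7.93 CPM in young and 2.73 to 9.16 CPM in aged libraries, and no fold change is given because all 3 young bulk-HSC libraries were at 0. Twistnb had a log2 fold change of 1.05 (SE 0.365), and its highest aged library, at 630 CPM, stood far above the aged median of 50.3 CPM. Of 11 genes of initiation and its regulation, Ubtf and Rrn3 among them, edgeR and limma-voom called 0 and DESeq2 called 1. That gene, also the 1 with an unadjusted p under 0.05, was Baz2a, which encodes the large subunit of a complex that silences ribosomal DNA. Its log2 fold change was -0.21 (SE 0.070, adjusted p = 0.0791), and that of Tcof1, an activator of ribosomal DNA transcription, was -0.11 (SE 0.077, adjusted p = 0.479).

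Of 14 proteins of small nucleolar particles, 2 were called, both lower, where 6.75% of all genes were called in either direction, and DESeq2 and limma-voom called the same 2. Fold changes were below 0 for 12 of the 14, against 45.3% of all genes. The median was -0.14 where that of all genes was 0.04. Beside Nop56 this was Nop10, a core protein of the H/ACA particles that make pseudouridine. Nop10 had 49.7 to 71.4 CPM in young and 24.9 to 39.8 CPM in aged LT-HSCs, 61.5 to 72.4 and 40.1 to 45.3 CPM in bulk-HSCs, and overlapping values in ST-HSCs. Its averaged log2 fold change was -0.55 (SE 0.139, adjusted p = 0.0217). Without replicate 2 of aged LT-HSCs or replicate 2 of aged ST-HSCs the adjusted p was 0.0509 and 0.0520, without both libraries of under 12000 detected genes it was 0.0652, and with detected genes as a covariate the value was -0.14 (adjusted p = 0.868).

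Of 9 histone-binding and scaffold proteins of the nucleolus, which include Ncl and Npm1, 1 was called. Npm3, a relative of nucleophosmin, fell, with 30.0 to 79.7 CPM in young and 20.7 to 32.2 CPM in aged libraries (averaged log2 fold change -0.68, SE 0.160, adjusted p = 0.0144). With detected genes as a covariate its value was -0.27 (adjusted p = 0.758). Of 56 genes of large subunit processing edgeR called 1, and DESeq2 and limma-voom called 2, the added one being Mdn1, which acts in large subunit maturation (edgeR log2 fold change -0.23, SE 0.075, adjusted p = 0.0739). Gnl3l, a nucleolar GTPase, rose, with an averaged log2 fold change of 0.58 (SE 0.097, adjusted p = 0.00112). The rise stood at 1.10 for bulk-HSCs (adjusted p = 0.00190) and 0.78 for ST-HSCs (adjusted p = 0.0348), where its level went from 56.4 ± 6.01 to 121 ± 10.3 CPM and from 56.2 ± 6.94 to 96.7 ± 11.8 CPM (SD, n = 3 each). In LT-HSCs it had 96.5 ± 8.67 CPM in young and 87.6 ± 17.8 CPM in aged mice (SD, n = 3 each; adjusted p = 0.939). The difference between the age effects of LT-HSCs and bulk-HSCs was -1.24 (SE 0.238, adjusted p = 0.0946), which did not pass the test. With the covariate the averaged value of Gnl3l was 0.47 (adjusted p = 0.203).

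Small subunit processing (52 genes) and RNA exosome and trimming factors (24 genes tested of 25) had 0 calls by edgeR. DESeq2 and limma-voom called 0 in both, and 3 and 1 of their genes had an unadjusted p under 0.05, against 19.7% of all genes. Utp18 and Heatr1, both of the small subunit processome, had averaged log2 fold changes of 0.35 (SE 0.141, adjusted p = 0.158) and -0.27 (SE 0.116, adjusted p = 0.202). The exosome nucleases Dis3 and Exosc10 had -0.33 (SE 0.145, adjusted p = 0.205) and -0.19 (SE 0.103, adjusted p = 0.347). Of 79 cytosolic ribosomal proteins 2 were called and moved in opposite directions, and the median was 0.03. Rplp2 of the large subunit rose by 0.20 (SE 0.059, adjusted p = 0.0483), a call lost with any 1 of 13 of the 18 libraries left out and in 19 of 29 alternatives in all. Those include scaling by library totals alone (adjusted p = 0.117), RLE size factors (0.0683) and the replicate block (0.0537). Rps3a1 of the small subunit had -0.25 (SE 0.068, adjusted p = 0.0325), a call lost with any 1 of 10 of the 18 left out and with detected genes as a covariate (adjusted p = 0.670). DESeq2 called Rpl26 beside these, and limma-voom Rps19 and Rps28. Ribosomal protein genes have many processed copies, so how reads were shared among copies may bear on both.

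**Figure D4:**
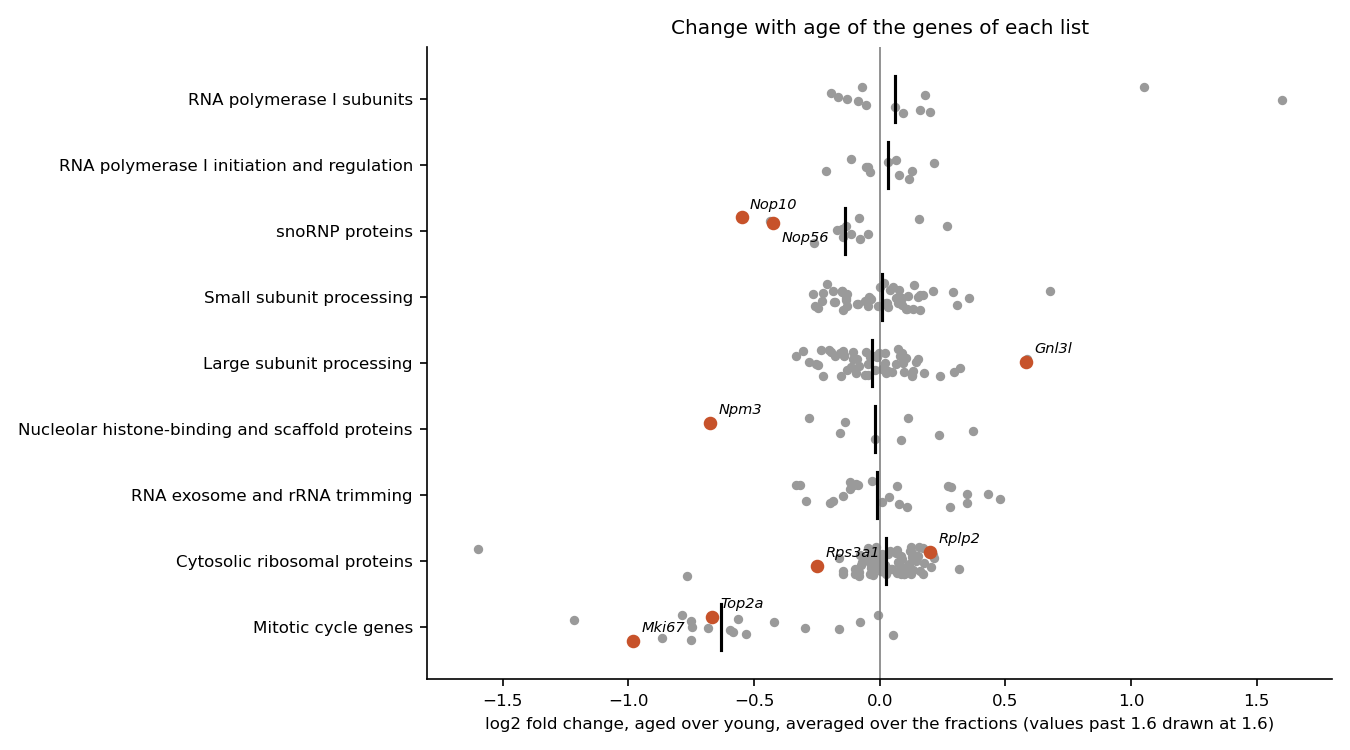
Log2 fold change with age, averaged over the fractions, of the genes of 8 lists of ribosome making and of 20 mitotic genes. Each point is a gene, black bars are list medians, orange points with names had an adjusted p under 0.05, and the vertical scatter carries no meaning. The medians of the 8 lists lie between -0.14 and 0.06, and that of the mitotic genes at -0.63.

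Of 20 genes of mitosis, 2 were called lower in the averaged age effect, against 6.75% of all genes called in either direction. They were Mki67, a marker of dividing cells, at -0.98 (SE 0.217, adjusted p = 0.00929) and Top2a, a DNA topoisomerase, at -0.67 (SE 0.177, adjusted p = 0.0281). DESeq2 called 4, with Kif23 and Cenpf, and limma-voom 2. Averaged fold changes below 0 were found for 19 of the 20, against 45.3% of all genes. The call of Top2a was lost with any 1 of 7 of the 18 libraries left out. Without both libraries of under 12000 detected genes its adjusted p was 0.0810. With detected genes as a covariate Mki67 had -0.39 (adjusted p = 0.720) and Top2a had -0.32 (adjusted p = 0.758). The summed level of the 20 genes lay between 513 and 862 CPM in young and between 272 and 633 CPM in aged ST-HSCs, and between 541 and 1042 CPM in young and 386 and 529 CPM in aged bulk-HSCs. In LT-HSCs it lay between 364 and 701 CPM in young and between 273 and 457 CPM in aged mice. Their part in the difference of Nop56 was not tested.

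The genes whose levels ran most like those of the members were ranked by Pearson's r over the 18 libraries, among 9702 genes with a mean of at least 10 CPM, as a description. The libraries share their depth and normalisation across genes. For Rn45s they were Zswim4 (r = 0.750), Eef2 (0.742), Bcl2 (0.741), H3f3b (0.740) and Gopc (0.716), of which Eef2 encodes the elongation factor that moves the ribosome along its message. For the mean of the 9 messenger RNAs they included Syce2 (0.885), Wdhd1 (0.882), Smarcc1 (0.855) and Me2 (0.840), of which Wdhd1 acts in DNA replication and Smarcc1 in chromatin remodelling. Among the members, Ncl and Fbl ran most alike (r = 0.913), and Rn45s had negative values with all 9 others, from -0.41 with Nop56 to -0.04 with Ubtf. After the group means were taken out, r was 0.817 for Ncl and Fbl and -0.63 for Rn45s and Ubtf.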

How the data were processed

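Total RNA of sorted HSCs was made into libraries by the authors with a KAPA RNA HyperPrep kit with RiboErase, which removes ribosomal RNA. They aligned the reads to mm10 with HISAT2 and quantified them with StringTie 1.3.4d and SAMtools 1.7, the tools named in the submitters' processing notes. The deposited values are counts per gene symbol. How they were derived from the output of StringTie is not given in the sources used here. Counts came out whole, and 0 columns of the table were left unused.

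The counts were analysed in R 4.3.3 with edgeR 4.0.16 (TMM factors, a quasi-likelihood fit of 6 group means on all 18 libraries, 12 residual degrees of freedom). Testing was limited to 12808 genes whose mean reached 1 CPM, and calls were made at an adjusted p (Benjamini-Hochberg, over all of them) under 0.05. Limma 3.58.1 and DESeq2 1.42.0 served as alternatives, beside other normalisations, filters, covariates and left-out libraries. The method was tested on simulated data.

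The members and gene lists were chosen with earlier results of these data known. The text names all members and, for each list, up to 2 risers and 2 fallers called in the averaged age effect by smallest p, or else the 2 genes of smallest p. A count of 3 corresponds to 0.131 to 0.182 CPM and covers counting error only. Same-numbered libraries of an age were not treated as pairs. One gene of the ranking by likeness is not reported here.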

Additional observations from a re-analysis of the deposited data

How the results depend on the processing

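The averaged calls of Rn45s and Nop56 kept their direction and side of the threshold under every alternative (removing Rn45s aside) except a covariate for detected genes, under which 0 members were called in the averaged effect and 0 in bulk-HSCs. That covariate lowered the calls over all genes from 864 to 153. Because detected genes ran with age, the covariate takes up part of the age contrast and widens its error. For a call lost under it, the part of detection and that of age cannot be told apart. With Rn45s removed from the table, which leaves 9 members by construction, 1 was called in the averaged effect (Nop56) and 0 in bulk-HSCs. DESeq2 called 1 member in ST-HSCs, 2 in bulk-HSCs, and, among young fractions, 1 for LT-HSCs against ST-HSCs and 1 for LT-HSCs against bulk-HSCs, and limma-voom 1 in ST-HSCs. Over all genes DESeq2 called 1494 in the averaged effect. With libraries left out in turn, the members called ranged from 0 to 1 in bulk-HSCs and from 0 to 1 between young LT-HSCs and ST-HSCs. The mean difference in the Rn45s share stayed between 1.22 and 1.695 points without a library, and was 2.02 points as a share of all other counts and 1.14 (p = 0.037, exact permutation test) without the 2 libraries with fewer than 12000 detected genes, an alternative chosen after seeing the data.

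Values near 0 changed sign. With the covariate the log2 fold change in LT-HSCs was -0.057 for Polr1a, 0.045 for Polr1b and 0.044 for Ncl, and that of Ubtf was -0.14 in bulk-HSCs and -0.087 on average. With limma-voom Polr1a had -0.0029 in LT-HSCs. Without the 2 libraries of few detected genes these were -0.062 for Polr1a, 0.076 for Polr1b and 0.016 for Ncl. With single libraries left out, LT-HSC values ran from -0.052 to 0.34 for Polr1a, from -0.27 to 0.087 for Polr1b, from -0.11 to 0.027 for Ncl, from -0.020 to 0.16 for Fbl and from -0.27 to 0.013 for Nop56. They ran from -0.18 to 0.041 for Ubtf in ST-HSCs, and in bulk-HSCs from -0.15 to 0.016 for Polr1a and from -0.12 to 0.0092 for Nop58. The causes were not tested.

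The correlation of deviations between same-numbered libraries of an age ran from -0.03 to 0.16 over 18 pairs (median 0.02, 2 over 0.1). Between libraries of an age with other numbers it ran from -0.16 to 0.06 over 36 pairs (median -0.007, 0 over 0.1). The 2 were LT-HSCs with ST-HSCs of young replicates 2 (0.16) and 3 (0.13). The labels state no pairs and the main fit took none, so a pairing of LT-HSCs with ST-HSCs remains possible. With such pairs the p-values averaged over the fractions, those of Rn45s and Nop56 among them, may be too small. The replicate block shared each number over both ages, so it was no test of pairs within an age. The replicate block left 2 members called in the averaged effect, 1 in bulk-HSCs and 0 in the other comparisons, the same counts as without it, and moved the calls over all genes from 864 to 855.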
